A study of Mus musculus with 32 samples.

Results

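A set of 9 transcription factor genes known for their part in macrophage identity was followed in macrophages sorted from mouse fat: Maf, the 4 MiT-TFE genes Mitf, Tfec, Tfeb and Tfe3, Spi1 (which encodes PU.1), Cebpa, Cebpb and Zeb2. They are 9 of the 24421 genes in the count tables, taken by symbol. Maf and Tfec were picked because earlier work on these data showed a genotype effect that differed between the 2 sorted populations. Their genotype, population and interaction values are therefore given as a description with no test, and so are their diet values, which share libraries with the contrast that picked them. The other 7 genes were not picked on measured values, and all 9 passed the filter on low counts.

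The samples are 32 bulk RNA-seq libraries, 4 in each of 8 groups. The cells are adipose tissue macrophages of C57BL/6J mice, sorted from epididymal fat as CD11c+ cells (CD206low CD11chigh) or CD206+ cells (CD206high CD11clow). The mice were wild type (WT) or carried a knockout of A20 restricted to myeloid cells (KO), and had received 12 weeks of high-fat diet (HFD) or standard diet (SD). Tnfaip3 encodes A20, which edits ubiquitin chains and thereby limits the activity of NF-kB. The labels name neither the Cre driver nor the animals' age, and do not state whether each library is from its own mouse. The p-values therefore refer to the spread among these libraries, which may be technical. In bulk libraries, fewer cells of a type and less RNA per cell cannot be told apart.

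As background, PU.1 and the C/EBP factors bind together at many myeloid enhancers, and graded PU.1 levels help to set the macrophage fate. MAF sustains the program of mature tissue macrophages and is a known activator of the IL-10 gene. The MiT-TFE factors are helix-loop-helix proteins that bind E-boxes. TFEB, TFE3 and MITF are held in the cytoplasm by mTORC1 when nutrients are plentiful and switch on lysosome and autophagy genes when released. TFEC is the family member restricted largely to macrophages. ZEB2 is a zinc finger repressor that keeps tissue macrophages from losing their identity.

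The promoters of Tfec and Tfe3 are shown because Tfec had the widest range of the 9 genes and because these were the only member promoters in the RefSeq table (assembly GRCm38.p6) that held GGAAGT, the core read by PU.1 and other ETS factors. Each run is the 250 bases before the annotated start, 5′ to 3′ on the gene's strand, with GGAAGT or its reverse complement ACTTCC in capitals. The Tfec window is chr6:16898442-16898691 on the minus strand, and the Tfe3 window is chrX:7762411-7762660 on the plus strand.
Tfec: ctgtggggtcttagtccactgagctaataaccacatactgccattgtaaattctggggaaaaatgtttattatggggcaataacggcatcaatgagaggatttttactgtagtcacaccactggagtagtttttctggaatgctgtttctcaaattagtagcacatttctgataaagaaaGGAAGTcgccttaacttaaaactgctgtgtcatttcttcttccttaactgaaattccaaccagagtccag
Tfe3: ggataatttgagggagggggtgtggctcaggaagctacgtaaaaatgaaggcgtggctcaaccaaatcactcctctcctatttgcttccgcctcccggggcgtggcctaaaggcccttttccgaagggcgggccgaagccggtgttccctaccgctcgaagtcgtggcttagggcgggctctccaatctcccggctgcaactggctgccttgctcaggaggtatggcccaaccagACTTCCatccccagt
The match lies 70 to 65 bases before the RefSeq start of Tfec and 15 to 10 bases before that of Tfe3. GENCODE M21 places the start of Tfe3 further upstream, at chrX:7762560, so the Tfe3 match lies inside the gene in that annotation. Of the 15 promoters listed for 7 of the 9 members, 2 held GGAAGT, which 19.7% of all 32851 promoters held on either strand. The longer PU.1 element GAGGAAGT, which contains GGAAGT, is in 2.44% of all promoters and in none of the 15. The E-box CACGTG (6.02% of promoters) and TCACGTGA (0.785%), the lysosomal form that contains it, were not found in a member promoter on either strand. The MAF half-site TGCTGA (16.1%) was in 2 Mitf promoters and the AP-1 site TGACTCA (4.46%) in 1 Zeb2 promoter, with 2 matches. These are letter matches only.

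In GENCODE M21 (GRCm38) the genes lie apart in the genome, except that Mitf and Tfec share a chromosome and so do Spi1, Cebpb and Zeb2. Maf is at chr8:115682942-115707794 and Tfec at chr6:16833373-16898441, both on the minus strand. Mitf is at chr6:97807052-98021349, Tfeb at chr17:47737030-47792419 and Tfe3 at chrX:7762560-7775202, all on the plus strand. Spi1 is at chr2:91082390-91115756, Cebpa at chr7:35119293-35121928 and Cebpb at chr2:167688915-167690418, on the plus strand, and Zeb2 is at chr2:44983632-45117395 on the minus strand. Exons of Cebpb overlap those of Tmem189 on the opposite strand over 312 bases, 20.7% of its exon length. Maf shares 5.3% of its exon bases with the antisense gene Gm15655, Zeb2 3.3% with Zeb2os and Cebpa 1.9% with Gm45091. The strand setting of the counting is not given in the sources used here, so reads of these overlaps cannot be told apart.

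Below, a value such as 0.40 ± 0.15 is a log2 fold change with its standard error, taken as KO minus WT, high-fat minus standard diet or CD11c+ minus CD206+. An adjusted p comes from edgeR's quasi-likelihood test with Benjamini-Hochberg adjustment over all tested genes, and a difference passed where it was under 0.05. The comparisons share libraries: each group enters a genotype, a diet and a population comparison. The fit held no block for the replicate number, which may pair the populations in some groups.

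Counts in genes, in units of 1e+06, ran from 17.6 to 23.8 per library (median 20.2). Tnfaip3 was lower in KO libraries in all 4 comparisons with WT but not absent: log2 fold changes ran from -1.98 to -1.28, at 167 to 474 CPM (counts per 1e+06 of the scaled library) in KO and 486 to 1647 CPM in WT libraries. The labels do not say which exons were deleted, so remaining reads do not measure functional A20. Itgax (CD11c) was higher and Mrc1 (CD206) lower in CD11c+ than in CD206+ cells in each genotype and diet. Itgax stood apart in WT CD206+ cells on high-fat diet, with a mean of 34.4 CPM against 3.63 CPM on standard diet (log2 difference 3.23, adjusted p 3.5e-08) and 3.41 CPM in KO CD206+ cells on high-fat diet (log2 difference of KO minus WT -3.34, adjusted p 1.34e-08). That group enters each diet comparison in WT CD206+ cells and each genotype comparison of CD206+ cells on high-fat diet below. It also enters the comparison of the populations in WT on high-fat diet. The differences of the genotype effect between populations on high-fat diet and between diets in CD206+ cells use it too. The part of the Itgax difference in all these results was not tested. All 9 macrophage markers on a fixed list, among them Csf1r, Adgre1, Fcgr1 and C1qa, were detected in every group. The 2 WT groups on standard diet stood apart on the third principal component (12% of the variance), with mean scores of -51.7 for CD11c+ and -43.9 for CD206+ cells against 9.5 to 28.5 for the other 6 groups.

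The 9 genes covered a wide range of levels. Per kilobase of merged exon length (RPKM), the median over the 32 libraries was 602 for Cebpb and 186 for Spi1, the pair of myeloid factors with the most RNA. Cebpa followed at 37.7, Zeb2 at 23.7, Tfe3 at 22.0 and Tfeb at 13.4 RPKM. Maf (9.27) and Mitf (8.88) were lower, and Tfec was lowest at 1.57 RPKM. Across the 8 group means the order of variability was different: the highest mean was 24.1 times the lowest for Tfec and 12.9 times for Maf, but between 1.31 times (Tfe3) and 2.09 times (Mitf) for the other 7.

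Maf was high in CD206+ cells, lower in CD11c+ cells, and lowest in WT CD11c+ cells on standard diet. Those 4 WT libraries held 9.19, 14.9, 12.9 and 9.77 CPM, and the KO libraries of the same population and diet held 50.7, 31.6, 40.2 and 45.9 CPM. On high-fat diet, CD11c+ cells held 46.5, 42.8, 50.7 and 35.2 CPM in WT and 51.2, 44.3, 51.0 and 43.4 CPM in KO. The low values were thus those of a single group, which overlapped no other, while the remaining 3 CD11c+ groups overlapped one another.

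In CD206+ cells Maf stood at 117, 138, 151 and 134 CPM in WT on standard diet and at 132, 167, 156 and 147 CPM in KO on the same diet. On high-fat diet the values were 102, 113, 127 and 102 CPM in WT and 134, 126, 124 and 127 CPM in KO. Every CD206+ library was above every CD11c+ library, and neighbouring CD206+ groups in the order of means overlapped. Expressed as log2 fold changes, KO minus WT on standard diet was 1.85 ± 0.14 in CD11c+ and 0.16 ± 0.13 in CD206+ cells, and the difference between these values, the one that picked the gene, was 1.69 ± 0.19. On high-fat diet the genotype values were 0.12 ± 0.13 and 0.20 ± 0.13, and their difference -0.09 ± 0.19. High-fat minus standard diet in WT CD11c+ cells was 1.90 ± 0.14, and in WT CD206+ cells -0.28 ± 0.13.

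Tfec was also higher in CD206+ than in CD11c+ cells and lowest in WT CD11c+ cells on standard diet, at lower levels than Maf. The 4 libraries of WT CD11c+ cells on standard diet held 0.455, 1.11, 0.267 and 0.586 CPM, which are 5 to 23 reads each. KO CD11c+ cells on that diet held 5.19, 5.90, 7.72 and 8.28 CPM, from 100 to 166 reads. On high-fat diet the CD11c+ values were 4.27, 4.34, 4.75 and 4.83 CPM in WT and 6.84, 6.34, 8.87 and 5.59 CPM in KO. No KO library of the CD11c+ population overlapped a WT library of the same population on either diet.

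CD206+ cells held 8.71, 12.5, 10.1 and 12.2 CPM of Tfec in WT on standard diet and 11.7, 13.5, 12.4 and 12.9 CPM in KO. On high-fat diet they held 9.22, 9.51, 9.39 and 9.60 CPM in WT and 17.9, 13.7, 15.2 and 11.4 CPM in KO. The KO and WT CD206+ libraries overlapped on standard diet and were apart on high-fat diet. KO minus WT was 3.46 ± 0.25 in CD11c+ and 0.21 ± 0.19 in CD206+ cells on standard diet, a difference of 3.25 ± 0.31. On high-fat diet it was 0.60 ± 0.20 and 0.63 ± 0.19, a difference of -0.02 ± 0.28. High-fat minus standard diet was 2.89 ± 0.25 in WT CD11c+ and -0.21 ± 0.19 in WT CD206+ cells. Without the WT CD11c+ standard-diet library that held 1.11 CPM, the genotype value in CD11c+ cells on that diet was 3.97 in place of 3.46.

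**Figure D1:**
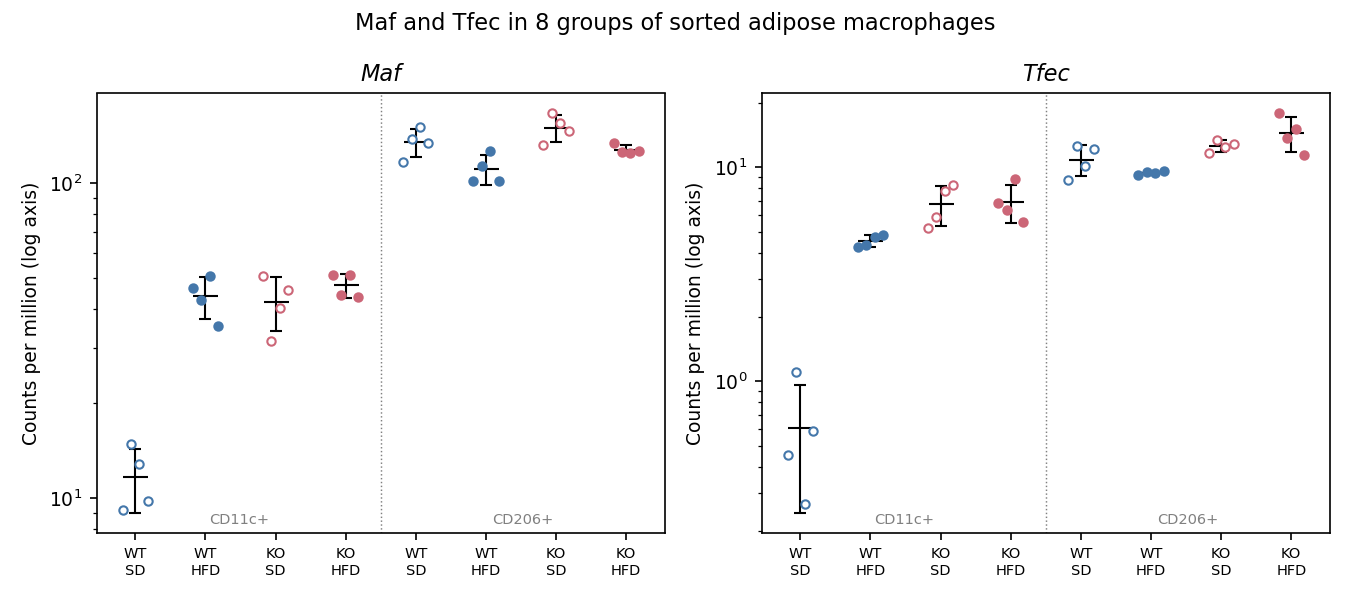
Maf (left) and Tfec (right) in CPM on a log axis for the 8 groups, with CD11c+ groups left of the dotted line and CD206+ groups right of it. Circles are libraries (blue WT, red KO, open standard diet, filled high-fat diet), and black marks are group means with SD (n = 4). WT CD11c+ cells on standard diet are lowest in both panels, at 9.19 to 14.9 CPM for Maf and 0.267 to 1.11 CPM for Tfec.

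Other genes stood apart in the same group. Among macrophage markers, the Fc receptor gene Fcgr1 was at 7.64 to 26.5 CPM in WT CD11c+ cells on standard diet against 58.2 to 204 CPM in the other 7 groups, the engulfment receptor gene Mertk at 15.5 to 29.9 against 35.6 to 149 CPM, and C1qa at 407 to 720 against 1203 to 3520 CPM. The sum over the 9 macrophage markers was nevertheless highest there, at 30385 to 35074 against 18497 to 25398 CPM, and most of it was lysozyme (Lyz2, 26192 to 28708 CPM). The 12 dendritic cell markers summed to 769 to 1316 CPM in this group, against 422 to 622 in KO CD11c+ cells on the same diet and 96.3 to 221 in WT CD11c+ cells on high-fat diet. In WT CD206+ cells on standard diet, where Maf and Tfec were high, the same sum was higher still, at 1516 to 1822 CPM. Single dendritic cell markers did not all follow the sum. Cd209a was at 207 to 444 CPM in WT CD11c+ cells on standard diet against 3.49 to 291 CPM in the other 7 groups, and Zbtb46 at 15.5 to 17.4 against 3.37 to 17.1 CPM. Flt3 was at 7.43 to 15.3 against 0 to 21.1 CPM. The 8 monocyte markers summed to 1705 to 2302 CPM in WT and 1635 to 2120 CPM in KO CD11c+ cells on standard diet, and to 452 to 646 CPM in WT CD11c+ cells on high-fat diet. The 11 T cell markers measured summed to 179 to 238 CPM in the WT group and to at most 168 elsewhere. No dendritic cell, monocyte or T cell marker was at 0 in all 4 libraries of the group, while 3 of 9 neutrophil markers and 1 of 9 mast cell markers were. The part of these markers in the Maf and Tfec values was not tested.

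Mitf, the family member best known from melanocytes and osteoclasts, was higher in KO than in WT CD11c+ cells on standard diet and lower on high-fat diet. WT CD11c+ cells held 39.1, 47.7, 43.4 and 36.0 CPM on standard diet and 96.0, 73.1, 84.3 and 72.6 CPM on high-fat diet. KO CD11c+ cells held 69.9, 75.4, 58.2 and 62.3 CPM on standard diet and 77.5, 43.7, 41.3 and 56.4 CPM on high-fat diet. The 2 WT ranges were apart, the KO ranges overlapped, and on standard diet every KO library was above every WT library. Mitf rose with high-fat diet in WT CD11c+ cells (0.97 ± 0.15, adjusted p 3.03e-06). KO cells were higher than WT on standard diet (0.68 ± 0.15, adjusted p 0.000917) and lower on high-fat diet (-0.57 ± 0.15, adjusted p 0.00253). The genotype effect therefore differed between the diets by -1.25 ± 0.21 (adjusted p 3.18e-05).

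In CD206+ cells Mitf was at 37.2, 39.7, 38.9 and 40.4 CPM in WT on standard diet and at 61.1, 53.7, 57.1 and 59.9 CPM on high-fat diet, again without overlap. In KO it was at 63.3, 56.3, 49.3 and 48.6 CPM on standard diet and 48.3, 64.3, 41.6 and 49.2 CPM on high-fat diet, with overlapping ranges. The diet effect in WT was 0.57 ± 0.15 (adjusted p 0.0045), and KO exceeded WT on standard diet by 0.48 ± 0.15 (adjusted p 0.0179). Without the KO library at 63.3 CPM the latter was 0.38 with an adjusted p of 0.0839. On high-fat diet the genotype difference did not pass (-0.19 ± 0.15, adjusted p 0.407). The genotype effect differed between diets by -0.67 ± 0.21 (adjusted p 0.0351), a call that was lost without any 1 of 8 libraries, with adjusted p up to 0.0812. Upper-quartile scaling also ended that call (adjusted p 0.0586). Between the populations, Mitf was higher in CD11c+ than in CD206+ cells in WT on high-fat diet (0.49 ± 0.15, adjusted p 0.0173), which became an adjusted p of 0.0798 without the WT CD11c+ library at 96.0 CPM and 0.057 without the WT CD206+ library at 53.7 CPM.

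Tfeb, the main lysosomal regulator of the family, was higher in CD11c+ than in CD206+ cells in every genotype and diet. WT CD11c+ cells on high-fat diet were highest, at 108, 106, 116 and 108 CPM, above all other libraries. The other CD11c+ groups were 86.4, 65.1, 77.5 and 98.7 CPM in WT on standard diet, 86.9, 78.9, 84.1 and 88.3 CPM in KO on standard diet and 79.0, 85.8, 75.5 and 96.2 CPM in KO on high-fat diet. These 3 groups overlapped. CD206+ cells held 80.3, 76.0, 71.5 and 72.7 CPM in WT on high-fat diet, and the remaining 3 CD206+ groups lay between 46.5 and 65.8 CPM.

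Tfeb was lower in KO than in WT on high-fat diet in both populations, with differences of -0.38 ± 0.10 (adjusted p 0.00357) in CD11c+ and -0.50 ± 0.10 (adjusted p 0.000488) in CD206+ cells. On standard diet the genotype differences were 0.05 and -0.08 and did not pass. High-fat diet raised Tfeb in WT CD11c+ cells (0.42 ± 0.10, adjusted p 0.00108) and in WT CD206+ cells (0.36 ± 0.10, adjusted p 0.00811). In CD11c+ cells the genotype effect differed between diets by -0.43 ± 0.14 (adjusted p 0.0251), and leaving out any 1 of 6 libraries ended that call, with adjusted p up to 0.079. In CD206+ cells the same difference was -0.42 ± 0.15 (adjusted p 0.0553). CD11c+ exceeded CD206+ cells by 0.49 to 0.67 on the log2 scale, with adjusted p from 6.85e-06 to 0.000283.

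Tfe3, which shares most targets with TFEB, was the steadiest of the 9 genes: group means ran from 177 to 232 CPM. All 4 CD206+ group means were above all 4 CD11c+ means, the reverse of Tfeb. CD11c+ cells were lower than CD206+ cells in WT on standard diet (-0.30 ± 0.09, adjusted p 0.00655), in KO on standard diet (-0.28 ± 0.09, adjusted p 0.0123) and in KO on high-fat diet (-0.26 ± 0.09, adjusted p 0.0213). The last of these was lost without any 1 of 4 libraries, and the first without the WT CD206+ library at 233.8 CPM, at an adjusted p of 0.0505. Fitting only the groups compared also ended the first (adjusted p 0.0547) and the last (0.072). With no filter on low counts the last had an adjusted p of 0.0788. No genotype or diet comparison passed for Tfe3. Its log2 fold changes there lay between -0.08 and 0.13. Without the WT CD11c+ standard-diet library at 215 CPM, high-fat minus standard diet in WT CD11c+ cells was 0.25 with an adjusted p of 0.0195.

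**Figure D2:**
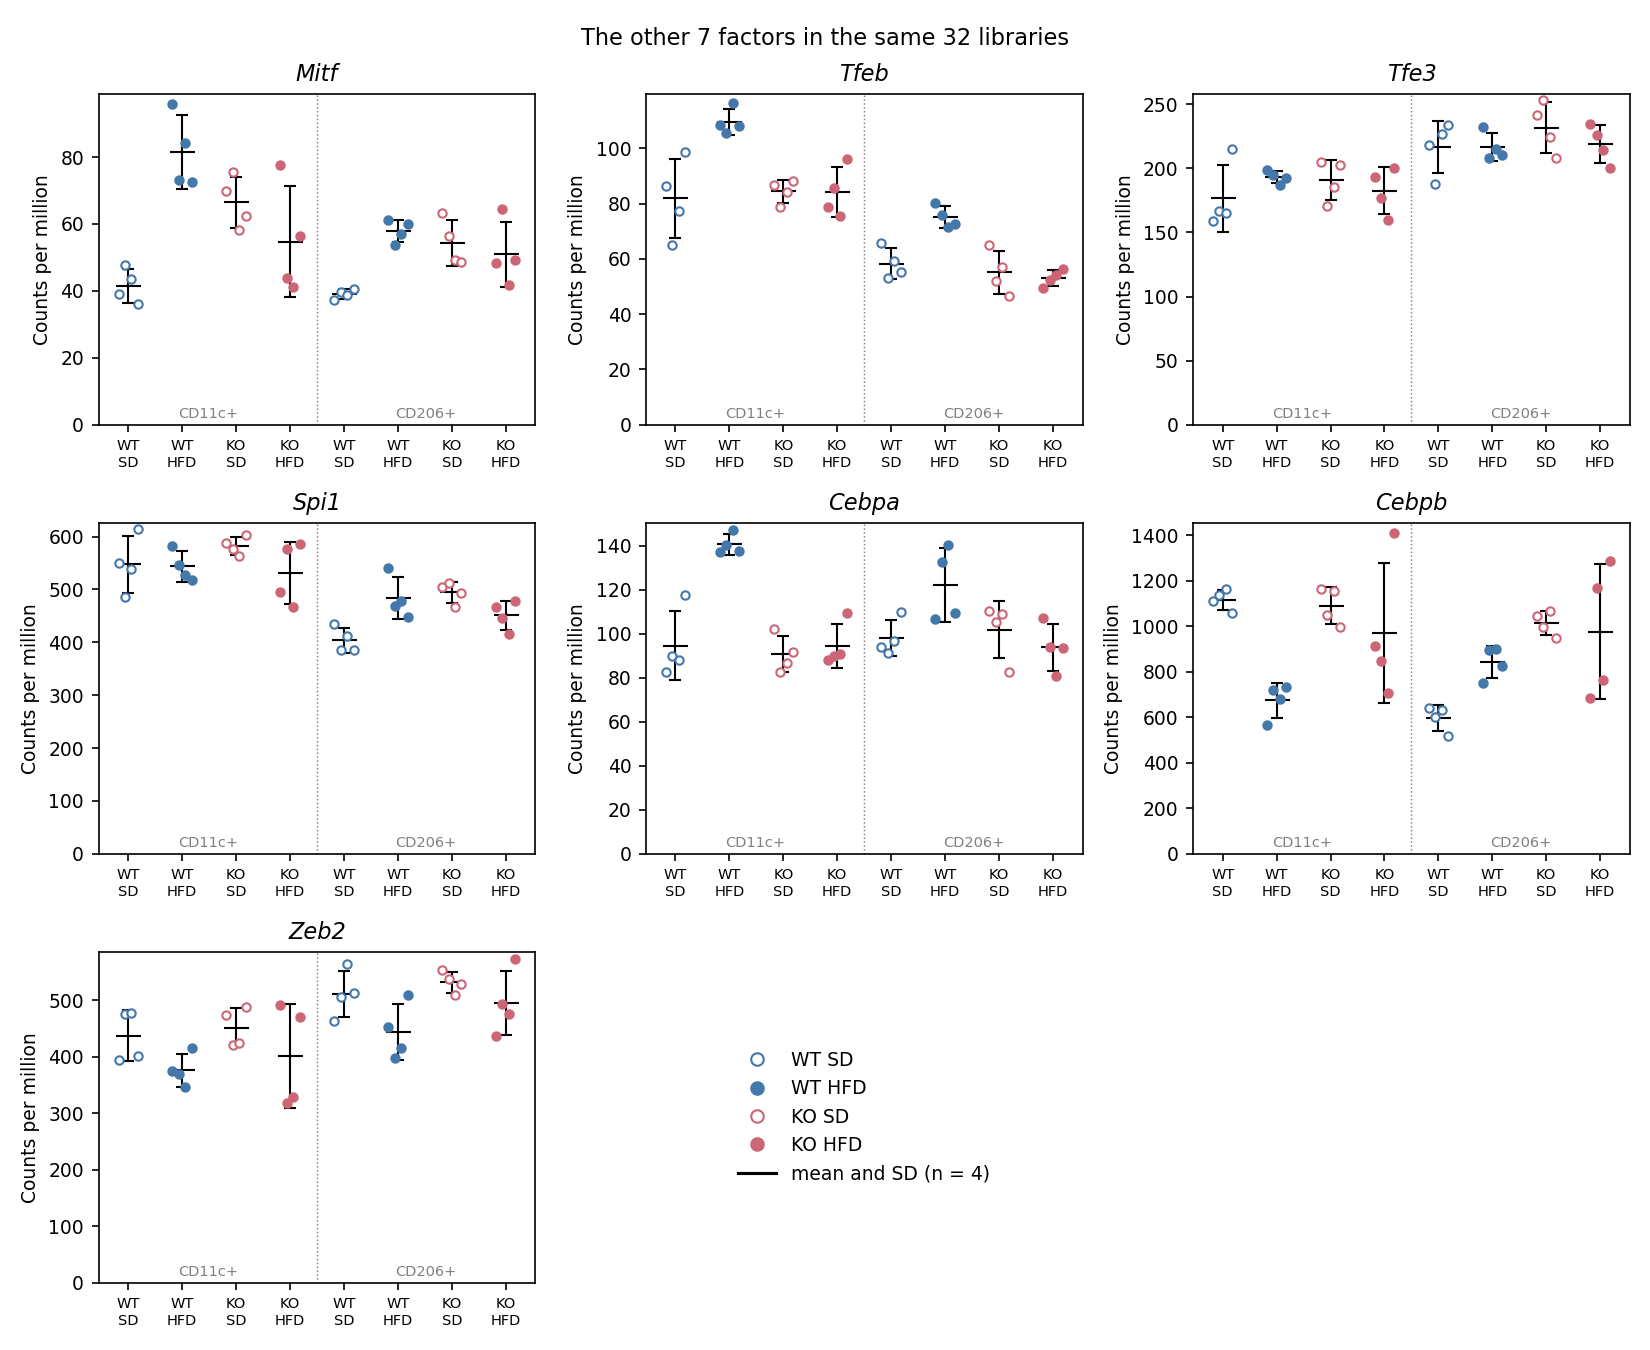
Levels in CPM of the 7 members that were not picked on measured values, on linear axes from 0, with the groups in the same order and the same symbols as for Maf and Tfec. Filled blue circles (WT, high-fat diet) sit above open blue ones (WT, standard diet) for Mitf and Tfeb in both populations, and for Cebpb they sit below in CD11c+ and above in CD206+ cells.

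As shares of the family's summed RPKM, Tfe3 made up 38.5% to 55.8% of MiT-TFE RNA, Tfeb 21.3% to 35.8%, Mitf 15.0% to 24.3% and Tfec 0.268% to 5.94%. The share of Tfe3 was lowest and that of Mitf highest in WT CD11c+ cells on high-fat diet. Tfec took its smallest share in WT CD11c+ cells on standard diet and its largest in KO CD206+ cells on high-fat diet. The shares come from group means and carry no test.

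**Figure D3:**
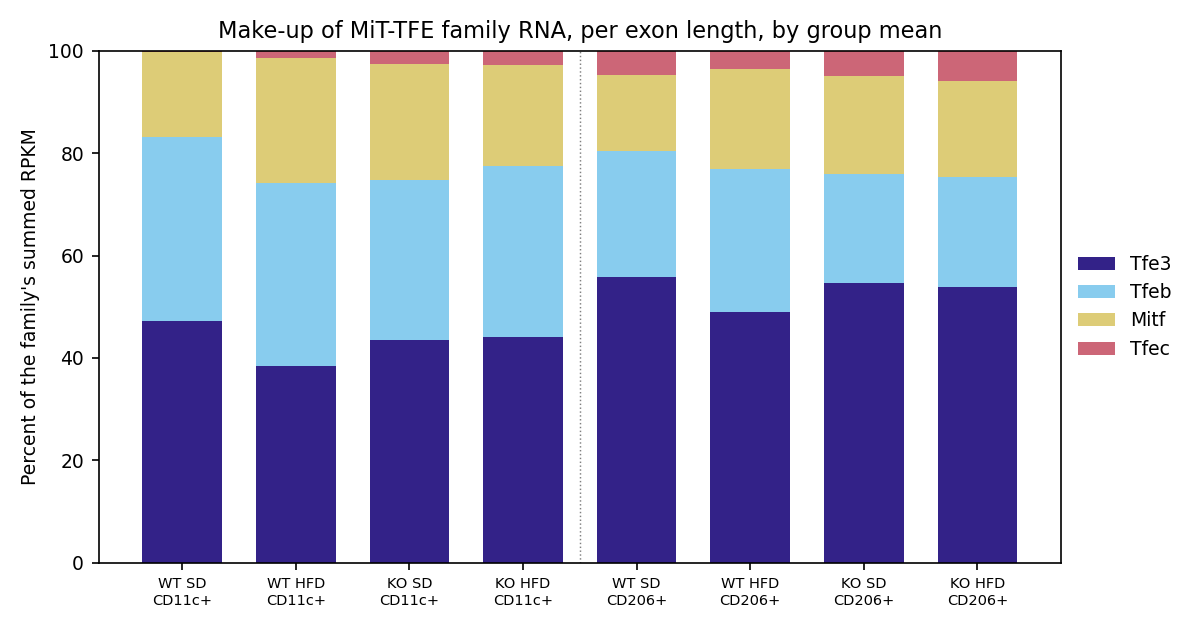
Stacked bars of the percent of summed RPKM taken by each MiT-TFE gene in the 8 group means. Tfe3 is the largest segment in every group, and Tfec is between 0.268% and 5.94%.

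Spi1 RNA was abundant throughout, with group means of 404 to 582 CPM. WT CD206+ cells on standard diet were lowest, at 434, 386, 411 and 385 CPM. KO CD206+ cells on that diet held 505, 513, 467 and 494 CPM and WT CD206+ cells on high-fat diet 541, 468, 478 and 449 CPM. Both of these groups were entirely above the WT standard-diet group. The genotype difference on standard diet was 0.29 ± 0.08 (adjusted p 0.00792) and the diet difference in WT 0.26 ± 0.08 (adjusted p 0.0155). The diet call was lost without the WT library at 540.9 CPM (adjusted p 0.065) and under upper-quartile scaling (0.0627).

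In CD11c+ cells Spi1 was at 467 to 615 CPM over all 16 libraries, and no genotype or diet difference passed. CD11c+ exceeded CD206+ cells by 0.44 ± 0.08 (adjusted p 2.79e-05) in WT on standard diet, by 0.24 ± 0.08 (adjusted p 0.0178) in KO on high-fat diet and by 0.24 ± 0.08 (adjusted p 0.0154) in KO on standard diet. Leaving out single libraries ended both KO calls, with adjusted p up to 0.0613 on high-fat and 0.0506 on standard diet. Fitting only the groups compared also ended the high-fat call (adjusted p 0.0662), and upper-quartile scaling the standard-diet call (0.0539). In CD206+ cells the genotype effect differed between diets by -0.39 ± 0.11 (adjusted p 0.0222), with an adjusted p of 0.0586 under upper-quartile scaling.

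Cebpa, the C/EBP factor of early myeloid commitment, was highest in WT cells on high-fat diet. The libraries of WT CD11c+ cells held 137, 141, 147 and 138 CPM on high-fat diet and 82.6, 90.0, 88.3 and 117 CPM on standard diet. KO CD11c+ cells held 88.3, 90.0, 90.6 and 109.6 CPM on high-fat diet and 102, 82.8, 86.6 and 91.7 CPM on standard diet. The WT high-fat group was apart from the other 3. Cebpa rose with high-fat diet in WT CD11c+ cells (0.57 ± 0.11, adjusted p 1e-04) and was lower in KO than in WT on that diet (-0.57 ± 0.11, adjusted p 0.000158). The genotype effect differed between diets by -0.51 ± 0.16 (adjusted p 0.0149).

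CD206+ cells held 107, 133, 140.3 and 109 CPM of Cebpa in WT on high-fat diet, with 2 libraries near 107 to 110 and 2 above 132. KO cells on that diet held 107, 94.1, 80.9 and 93.6 CPM, a range that overlapped the WT one. KO was lower on high-fat diet (-0.38 ± 0.11, adjusted p 0.0137), and high-fat diet raised Cebpa in WT (0.32 ± 0.11, adjusted p 0.034). Both calls depended on single libraries. The genotype call was lost without any 1 of 3 libraries (adjusted p up to 0.0768) and the diet call without any 1 of 5 (up to 0.113). Upper-quartile scaling (adjusted p 0.0893) and a minimum count of 50 (adjusted p 0.0517) also ended the diet call.

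Cebpb, the C/EBP factor induced in inflammation, had the most RNA per length of the 9, and in WT cells high-fat diet moved it in opposite directions in the 2 populations. WT CD11c+ cells held 1111, 1136, 1162 and 1060.1 CPM on standard diet and 565, 719.5, 679.6 and 732 CPM on high-fat diet. WT CD206+ cells held 640.3, 600.5, 631 and 516 CPM on standard diet and 750.0, 894, 901 and 825 CPM on high-fat diet. Neither pair of ranges overlapped. Cebpb fell with high-fat diet in WT CD11c+ cells (-0.73 ± 0.16, adjusted p 0.000476) and rose in WT CD206+ cells (0.50 ± 0.16, adjusted p 0.0226). The rise was not called without the WT CD206+ library at 516 CPM (adjusted p 0.0618).

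KO libraries on standard diet were even, at 1165, 1051, 1153 and 996 CPM in CD11c+ and 1046, 996, 1069 and 949.8 CPM in CD206+ cells. On high-fat diet they were spread, at 911, 848, 705 and 1412 CPM in CD11c+ and 684, 1167, 763 and 1287 CPM in CD206+ cells. Cebpb was higher in KO than in WT in CD206+ cells on standard diet (0.77 ± 0.16, adjusted p 0.00079), with every KO library above every WT library. In CD11c+ cells on standard diet the difference was -0.03 ± 0.16. The genotype effect on standard diet thus differed between the populations by -0.80 ± 0.23 (adjusted p 0.0319), a call that leaving out any 1 of 5 libraries ended (adjusted p up to 0.0693). On high-fat diet KO exceeded WT in CD11c+ cells by 0.52 ± 0.16 (adjusted p 0.0115), but without the KO library at 1412 CPM the value was 0.29 with an adjusted p of 0.13. Fitting only the groups compared gave 0.52 with an adjusted p of 0.0504. In WT on standard diet CD11c+ exceeded CD206+ cells by 0.90 ± 0.16 (adjusted p 2.33e-05). In WT on high-fat diet CD11c+ minus CD206+ was -0.32 ± 0.16 (adjusted p 0.16). With genotype, diet and replicate number as a block it was -0.32 with an adjusted p of 0.0155.

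Cebpa took 4.53% to 10.6% of the summed RPKM of Cebpa and Cebpb, the smallest share in KO CD11c+ cells on standard diet and the largest in WT CD11c+ cells on high-fat diet. Immediate early genes, which respond within minutes to stimuli and to tissue handling, summed to 31381 to 38219 CPM in WT CD206+ cells on standard diet, where Cebpb was lowest. They summed to 21644 to 28180 CPM in WT CD11c+ cells on that diet, where Cebpb was highest, and to 11108 to 20112 CPM in WT cells on high-fat diet. Their part in the Cebpb values was not tested.

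Zeb2 had group means of 377 to 533 CPM, with overlap between all neighbouring groups in the order of means. Its mean was higher in CD206+ than in CD11c+ cells in each genotype and diet. The difference passed in KO on high-fat diet (-0.30 ± 0.12, adjusted p 0.0367), where 2 of the 4 CD11c+ libraries were near 318 to 328 CPM and leaving out any 1 of 5 libraries ended the call. Using no filter on low counts (adjusted p 0.102) or fitting only the groups compared (0.181) also ended the call. In WT on standard diet the difference was -0.23 ± 0.12 (adjusted p 0.0917) and in KO on standard diet -0.24 ± 0.12 (adjusted p 0.0901). With genotype, diet and replicate number as a block these became -0.23 (adjusted p 0.039) and -0.24 (adjusted p 0.0368). No genotype or diet difference passed, and log2 fold changes there lay between -0.22 and 0.16.

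**Figure D4:**
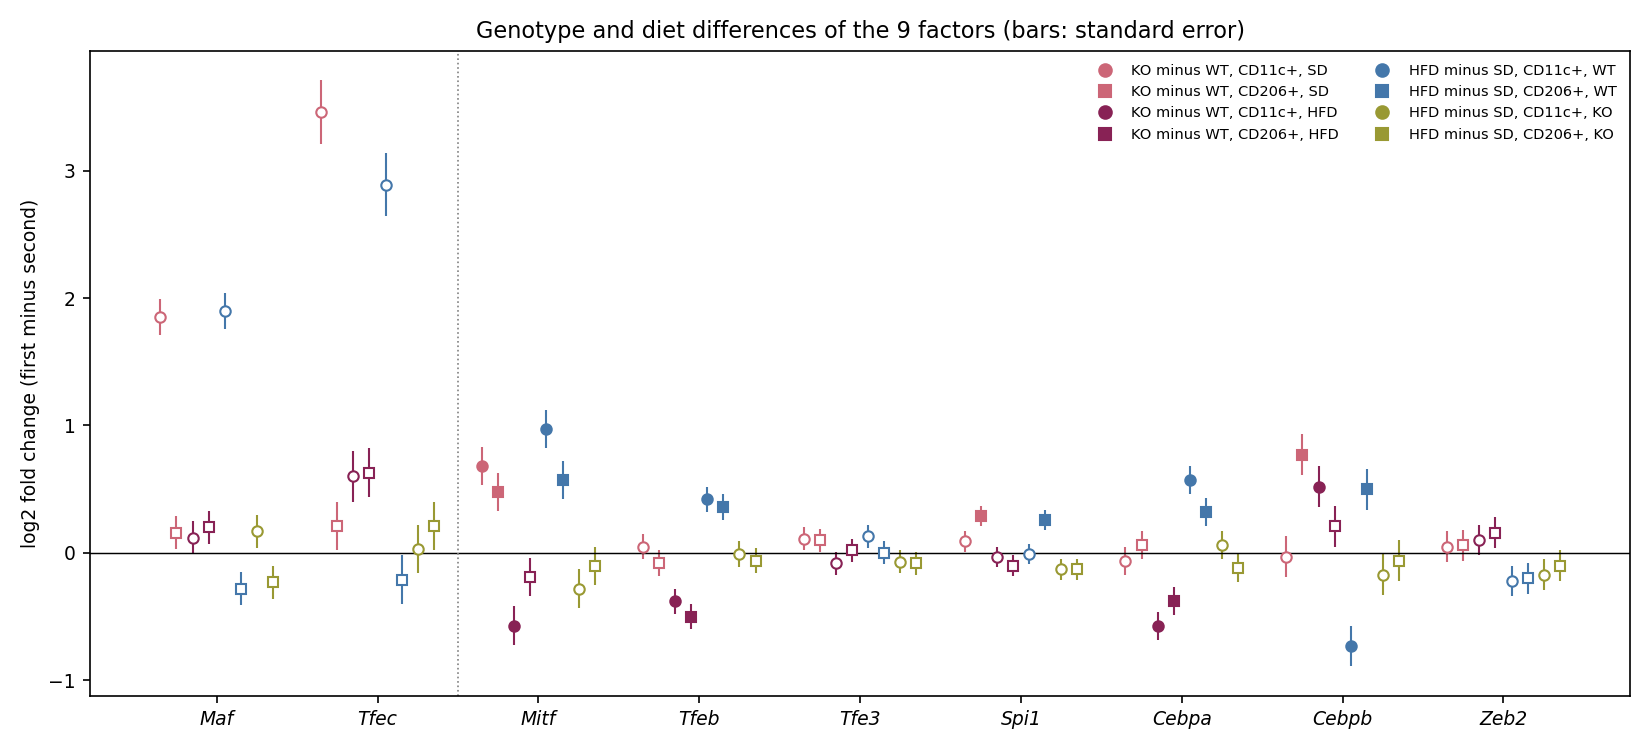
Log2 fold changes of the 9 genes with standard errors for the 4 genotype and 4 diet comparisons, KO minus WT or high-fat minus standard diet, with circles for CD11c+ and squares for CD206+ cells. Filled symbols passed an adjusted p of 0.05, and all values of Maf and Tfec are open because they were not tested for this purpose. In KO cells (olive) the diet differences lie between -0.28 and 0.21.

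The 7 members not picked on measured values were counted beside the share of all 13453 tested genes that passed in the same comparison. Between KO and WT in CD11c+ cells on high-fat diet 1 of the 7 rose and 3 fell, where 38% of all genes passed, 18.6% higher and 19.4% lower. In CD206+ cells on high-fat diet 0 rose and 2 fell, against 21.8% of all genes, 10.5% higher and 11.3% lower. In CD11c+ cells on standard diet 1 rose and 0 fell (26.8% of all genes, 13.2% higher and 13.6% lower). In CD206+ cells on standard diet 3 rose and 0 fell (24.5%, 11.8% higher and 12.7% lower). Between diets in WT, 3 rose and 1 fell in CD11c+ cells (46.3%, 23.8% higher and 22.6% lower), and 5 rose and 0 fell in CD206+ cells (27.7%, 14.2% higher and 13.5% lower).

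Between the diets in KO cells few genes passed. By edgeR's test 0 of the 7 members passed in either population, 0 had an unadjusted p under 0.05, and DESeq2 called 0. Over all genes 1 passed in CD11c+ cells (0.00743%) and 0 in CD206+ cells (0%), with 1221 and 831 at an unadjusted p under 0.05 and 51 and 18 calls by DESeq2. Without the KO CD11c+ high-fat replicate 1 the count in CD11c+ cells was 80, and without replicate 4 of that group it was 16. Maf moved by 0.17 ± 0.13 in CD11c+ and -0.23 ± 0.13 in CD206+ cells, and Tfec by 0.03 ± 0.19 and 0.21 ± 0.19. These comparisons share their KO libraries with the genotype comparisons.

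In CD11c+ against CD206+ cells 2 of 7 members were higher and 0 lower in WT on high-fat diet, where 20.4% of all genes passed, 11.7% higher and 8.7% lower. In WT on standard diet 3 were higher and 1 lower (63.7% of all genes, 30.2% higher and 33.5% lower). In KO 2 were higher and 2 lower on high-fat diet (45.8%, 23.3% higher and 22.5% lower), and 2 higher and 1 lower on standard diet (51.7%, 25.6% higher and 26.1% lower). Maf in these 4 comparisons was -1.34, -3.52, -1.43 and -1.84 on the log2 scale, and Tfec was -1.05, -4.14, -1.07 and -0.90. The genotype effect differed between populations for 0 of 7 members on high-fat diet (4.36% of all genes, 2.16% higher and 2.2% lower), and for 0 of 7 also at an unadjusted p under 0.05 and by DESeq2. The 586 genes behind that share became 354 without replicate 2 of KO CD11c+, 306 without replicate 3 of KO CD206+ and 316 without replicate 1 of WT CD11c+ cells on high-fat diet, and 1209 with the populations paired by replicate number. On standard diet it differed for 1 of 7, with the lower value in CD11c+ cells (6.57% of all genes, 4.1% higher and 2.48% lower). It differed between diets for 3 of 7 in CD11c+ cells (28.8%, 13.9% higher and 15% lower) and 2 of 7 in CD206+ cells (11.9%, 5.23% higher and 6.63% lower), each time with a lower KO minus WT value on high-fat than on standard diet. Maf and Tfec in CD11c+ cells differed between diets by -1.73 ± 0.20 and -2.86 ± 0.32.

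Relatives of MAF were measured from a list of 10, of which 9 could be tested. They include the small MAF proteins, which pair with larger leucine zipper factors. Of the list, 1 rose and 3 fell between genotypes in CD11c+ cells on high-fat diet (median -0.19 against -0.02 for all genes). Of all genes 38% passed there. In CD206+ cells on that diet 0 of 9 passed, against 21.8% of all genes. The shares of all genes given above for each comparison also apply to the counts of the lists below. A count near its share is not read as a result about the list. Nfe2l2, the regulator of antioxidant genes that pairs with small MAF proteins, rose in KO CD206+ cells on standard diet (0.89 ± 0.20) and with high-fat diet in WT CD206+ cells (0.83 ± 0.20).

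Macrophage genes linked to MAF, a list of 19, were lower in CD11c+ than in CD206+ cells: 15 fell and 0 rose in WT on high-fat diet, 19 and 0 in WT on standard diet, and 18 and 0 in KO on each diet. Their median log2 fold changes were -1.87 in WT on high-fat diet, -3.43 in WT on standard diet, -2.18 in KO on high-fat diet and -2.5 in KO on standard diet, against medians of all genes between -0.06 and 0. The list includes Mrc1, which the sort used. Between genotypes on standard diet, 12 rose and 2 fell in CD11c+ cells (median 0.89 against -0.02), and 2 rose and 7 fell in CD206+ cells (median -0.39 against -0.03). The scavenger receptor gene Marco, with 0 to 6 reads per library in WT CD11c+ cells, rose in both (5.90 ± 1.03, and 4.75 ± 0.68), C1qa rose in CD11c+ cells (1.61 ± 0.16), and the haemoglobin scavenger receptor gene Cd163 fell in both (-2.84 ± 0.35, and -2.33 ± 0.33). The list did not move as one: C1qa and Cd163 took opposite directions in the same CD11c+ cells.

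On high-fat diet 8 of the 19 rose and 5 fell between KO and WT CD11c+ cells (median 0.11), and 8 rose and 0 fell in CD206+ cells (median 0.45). Timd4, a receptor for dying cells on resident macrophages, rose in both (4.18 ± 0.54, and 2.41 ± 0.42). The scavenger receptor gene Stab1 fell in CD11c+ cells (-1.63 ± 0.24). High-fat diet in WT raised 10 and lowered 3 of the list in CD11c+ cells (median 1.33 against 0.01) and raised 1 and lowered 12 in CD206+ cells (median -0.7 against -0.02). Il10 was the 1 that rose in CD206+ cells (1.06 ± 0.26), and the eotaxin gene Ccl24 fell in both (-3.16 ± 0.32, and -2.60 ± 0.31).

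Of 42 lysosome and autophagy genes known as MiT-TFE targets, 31 rose and 1 fell with high-fat diet in WT CD11c+ cells (median 0.65 against 0.01 for all genes). In WT CD206+ cells 23 rose and 0 fell (median 0.3 against -0.02). The shares of all genes that rose were 23.8% in CD11c+ and 14.2% in CD206+ cells. Gpnmb, a lysosomal glycoprotein gene under MITF control, rose most in both (4.37 ± 0.58, and 7.05 ± 0.68), followed in each by Atp6v0d2, a proton pump subunit (3.68 ± 0.35, and 3.76 ± 0.36). In KO cells 0 of 42 passed between diets by edgeR's test, with 9 in CD11c+ and 3 in CD206+ cells at an unadjusted p under 0.05.

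Between KO and WT on high-fat diet 3 of the list rose and 23 fell in CD11c+ cells (median -0.28 against -0.02). In CD206+ cells 3 rose and 14 fell (median -0.12 against 0). All genes that fell made up 19.4% in CD11c+ and 11.3% in CD206+ cells. Atp6v0d2 fell, with values of -3.35 ± 0.35 in CD11c+ and -4.10 ± 0.37 in CD206+ cells. The cathepsin gene Ctss rose in both (0.49 ± 0.13, and 0.52 ± 0.13). On standard diet 17 rose and 0 fell in CD11c+ (median 0.24 against -0.02), and 11 rose and 3 fell in CD206+ cells (median 0.16 against -0.03). Ctsb rose by 1.05 ± 0.11 in CD11c+ cells, and Ctsf fell (-0.97 ± 0.19) in CD206+ cells. Between populations 17 rose and 0 fell in CD11c+ against CD206+ cells of WT on high-fat diet, and 14 rose and 17 fell in WT on standard diet. The WT groups are shared between the genotype and the diet comparisons. Of 10 stromal markers, 10 fell in KO against WT on high-fat diet in each population (medians -2.31 in CD11c+ and -2.04 in CD206+ cells), and their part in the lysosome list was not tested.

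**Figure D5:**
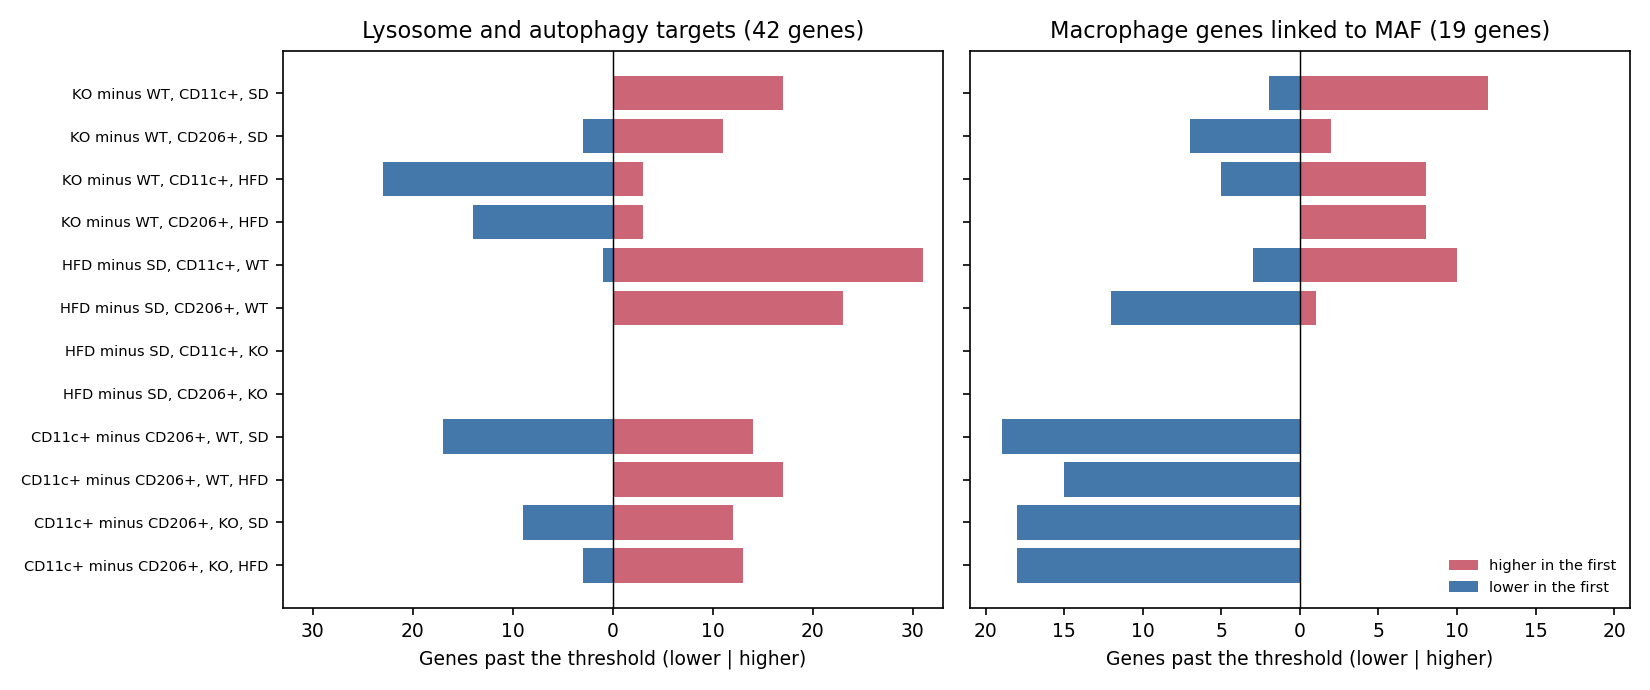
Bars count genes past an adjusted p of 0.05, to the right where higher and to the left where lower in the first-named group, for 42 lysosome and autophagy targets of the MiT-TFE factors (left) and 19 macrophage genes linked to MAF (right). The lysosome bars reach 31 and 23 to the right for diet in WT and are empty for diet in KO cells. The MAF-linked bars reach 15 to 19 to the left between the populations.

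Genes that control the MiT-TFE factors through nutrients, a list of 28, include the folliculin complex and Rag GTPases. High-fat diet in WT raised 12 and lowered 3 in CD11c+ cells (median 0.08) and raised 8 and lowered 0 in CD206+ cells (median 0.15). Fnip2, a partner of folliculin, rose in both (1.69 ± 0.13, and 1.24 ± 0.13), and so did Map4k3, a kinase that responds to amino acids (2.12 ± 0.18, and 0.86 ± 0.18). KO against WT on high-fat diet gave 2 higher and 11 lower in CD11c+ cells (median -0.17), where 19.4% of all genes were lower. In CD206+ cells it gave 0 higher and 7 lower (median -0.14), against 11.3% of all genes lower. Fnip2 fell in both (-1.20 ± 0.13, and -0.87 ± 0.13). On standard diet 2 rose and 6 fell in CD11c+ cells, and 4 rose and 3 fell in CD206+ cells.

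Osteoclast-type targets of MITF and TFEC, 13 measured genes of a list of 14, went both ways. High-fat diet raised 7 and lowered 3 in WT CD11c+ cells, where 23.8% of all genes rose and 22.6% fell. It raised 8 and lowered 1 in WT CD206+ cells (14.2% and 13.5% of all genes). The protease gene Ctsk rose in both (4.63 ± 0.51, and 4.87 ± 0.55), while Mmp9 fell in both (-1.74 ± 0.40, and -4.18 ± 0.40). In KO on high-fat diet 1 rose and 6 fell in each population. Mmp9 was the 1 that rose (5.67 ± 0.44 in CD11c+ cells, and 5.18 ± 0.42 in CD206+ cells), and Ctsk fell (-3.85 ± 0.49, and -4.97 ± 0.55). Gpnmb, Atp6v0d2 and Clcn7 are on this list and the lysosome list. Mast cell markers, which include genes under MITF control in that lineage, summed to 26.7 to 130.5 CPM in WT CD206+ cells on high-fat diet and to 3.36 to 8.10 CPM in WT CD11c+ cells on standard diet. Stromal markers, from cells that also express Ctsk, summed to 446.9 to 1990 CPM in WT CD206+ cells on high-fat diet against 223 to 288 CPM in KO cells of that population and diet. The part of these markers in the Ctsk and Mitf values was not tested.

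Relatives and partners of PU.1 were measured from a list of 20. With high-fat diet in WT CD11c+ cells 1 rose and 11 fell (median -0.51 against 0.01), where 23.8% of all genes rose and 22.6% fell. Irf8, the PU.1 partner of monocyte and dendritic cell development, was the 1 that rose (1.58 ± 0.22), while Irf4, the alternative partner, fell there (-2.51 ± 0.23) and in CD206+ cells (-1.90 ± 0.23). In KO CD11c+ cells on standard diet the same pair moved the same way, Irf8 by 1.62 ± 0.22 and Irf4 by -1.64 ± 0.22, with 4 of the list higher and 3 lower. KO against WT gave 8 higher and 0 lower in CD11c+ cells on high-fat diet (median 0.42 against -0.02), 4 higher and 3 lower in CD206+ cells on that diet, and 6 higher and 5 lower in CD206+ cells on standard diet. High-fat diet in WT CD206+ cells gave 4 higher and 6 lower. In KO against WT CD11c+ cells on high-fat diet 11 of 12 dendritic cell markers (median 1.47) and 8 of 8 monocyte markers (median 2.48) were also higher, and their part in the values of the PU.1 partners was not tested.

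Myeloid genes that depend on PU.1, a list of 24, included the receptors of the colony-stimulating factors and the Fc receptors. In KO CD206+ cells on standard diet, where Spi1 was higher than in WT, 13 rose and 0 fell (median 0.39 against -0.03). The share of all genes that rose was 11.8%. In the other 3 genotype comparisons 7 to 10 rose and 3 to 6 fell, with medians of 0.16 to 0.17. Csf3r, the G-CSF receptor gene, rose in all 4, by 2.77 ± 0.23 in CD11c+ cells on standard diet and 1.27 ± 0.21 in CD206+ cells on that diet. Csf3r is also on the neutrophil list, whose 9 genes summed to 85.9 to 111.7 CPM in KO and 36.2 to 53.3 CPM in WT CD206+ cells on standard diet. The part of neutrophil RNA in the Csf3r values was not tested. High-fat diet in WT raised 10 and lowered 8 in CD11c+ cells and raised 7 and lowered 1 in CD206+ cells.

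The other C/EBP genes and their regulators, a list of 11, gave 4 higher and 1 lower in KO on high-fat diet in each population (medians 0.16 and 0.28). All genes that rose made up 18.6% in CD11c+ and 10.5% in CD206+ cells. Cebpd, an acute-phase partner of Cebpb, rose in both (1.01 ± 0.12, and 0.74 ± 0.11), as did Batf (1.76 ± 0.14, and 1.15 ± 0.14). On standard diet 1 rose and 5 fell in CD11c+ cells, and 1 rose and 4 fell in CD206+ cells. Trib1, whose protein directs the degradation of C/EBP alpha, fell in KO CD11c+ cells on standard diet (-0.61 ± 0.14) and with high-fat diet in WT CD11c+ cells (-0.93 ± 0.14). High-fat diet in WT raised 3 and lowered 7 in CD11c+ cells, and raised 1 and lowered 5 in CD206+ cells.

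Inflammatory genes linked to C/EBP beta, a list of 18, include acute-phase, complement and cytokine genes. Between KO and WT on high-fat diet 11 rose and 2 fell in CD11c+ cells (median 1.37 against -0.02 for all genes), and 10 rose and 1 fell in CD206+ cells (median 1.21 against 0). On standard diet 9 rose and 3 fell in CD11c+ cells (median 0.69 against -0.02), and 9 rose and 1 fell in CD206+ cells (median 1.26 against -0.03). Of all genes 18.6%, 10.5%, 13.2% and 11.8% were higher in these 4 comparisons, in the same order. The acute-phase gene Saa3 rose most, by 9.13 ± 0.66 in CD11c+ cells on high-fat diet and 7.04 ± 0.55 in CD206+ cells on standard diet. Complement factor B (Cfb) followed with 6.07 ± 0.31 and 4.6 ± 0.28 in the same comparisons. Il6 fell in KO on standard diet in CD11c+ (-1.48 ± 0.36) and CD206+ cells (-1.01 ± 0.37). Cebpb itself differed between the genotypes by 0.52 ± 0.16 in CD11c+ and 0.21 ± 0.16 in CD206+ cells on high-fat diet, and by -0.03 ± 0.16 in CD11c+ and 0.77 ± 0.16 in CD206+ cells on standard diet. Some markers of other cells were also higher in KO. Of 11 T cell markers 9 rose on high-fat diet in each population (medians 3.25 in CD11c+ and 2.72 in CD206+ cells). On standard diet 4 and 7 rose, and 1 or 2 fell in each of the 4 comparisons. Their summed level on high-fat diet was 90.9 to 141.7 CPM in KO and 96.8 to 124 CPM in WT CD11c+ cells. In CD206+ cells it was 84.3 to 166 against 38.0 to 41.1 CPM. On standard diet the sum was lower in KO (89.7 to 124 CPM) than in WT CD11c+ cells (179 to 238 CPM). In CD206+ cells on that diet it was 107 to 168 CPM in KO and 25.9 to 38.6 CPM in WT. Mast cell markers had medians of -2.13 in CD11c+ and -2.09 in CD206+ cells on high-fat diet, and stromal markers fell there too. Of 8 monocyte markers 8 rose in CD11c+ and 4 in CD206+ cells on high-fat diet (medians 2.48 and 1.22), and 4 and 5 on standard diet. Their part in the list's values was not tested.

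Relatives and partners of ZEB2, 15 measured genes of a list of 16, gave counts of 1 to 5 higher and 2 to 4 lower in the genotype comparisons. In these, 10.5% to 18.6% of all genes were higher and 11.3% to 19.4% lower. Nr1h3, which encodes LXR alpha and depends on ZEB2 in tissue macrophages, rose in KO on standard diet in CD11c+ (2.19 ± 0.19) and CD206+ cells (2.1 ± 0.19) and with high-fat diet in WT (2.1 ± 0.19 in CD11c+, and 1.52 ± 0.19 in CD206+ cells). Zeb2 itself differed by 0.05, 0.06, -0.22 and -0.20 in those 4 comparisons. The TGF-beta receptor gene Tgfbr1 rose with high-fat diet in WT CD11c+ cells (2.42 ± 0.19) and was lower in KO on that diet (-1.74 ± 0.19).

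Across the 32 libraries, Pearson correlations of log2 CPM describe which members varied alike. They rest on the shared group structure and carry no test. Maf and Tfec had r = 0.92, but both were picked for the same pattern over these libraries, so this value is not independent of that choice. Among the other pairs Maf and Tfe3 (0.72) and Tfeb and Spi1 (0.71) varied most alike, while Maf and Tfeb (-0.65) and Tfeb and Zeb2 (-0.66) ran opposite. Among 8070 other genes of at least 10 CPM, the genes most like Maf were Sorbs3 (0.98), Dse (0.97), P2ry12 and Tgfbr2 (both 0.96). Once group means were removed, these 4 correlations were 0.48, 0.53, 0.65 and 0.27. Closest to Tfec were Ms4a6b (0.97), Pigz (0.96), Slc7a7 and Ninj1 (both 0.95). Mitf was most like Prkch (0.85), Tfeb most like Atxn10 (0.93) and Tfe3 most like Tnfrsf1a (0.85). For Spi1 it was Efhd2 (0.92), for Cebpa Anxa11 (0.86), for Cebpb Baz1a (0.82) and for Zeb2 Rbbp6 (0.86). Within groups the highest of these first-ranked values was 0.81, for Spi1 and Efhd2.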

How the data were processed

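RNA of sorted macrophages was sequenced in 32 libraries of 8 groups with 4 libraries each. The authors deposited raw read counts per gene, 1 table a library, with 24421 genes and 5 entries that name no gene, which were left out of library sizes. Reads without a feature came to 5.16% to 11.1% and ambiguous reads to 0.992% to 1.48% of each table. The submitters' processing notes name TopHat2 2.1.0 with mm10, besides SAMtools 0.1.18, Trimmomatic 0.35 and FastQC 0.11.4. Not given in the sources used here are the counter, its annotation and its strand setting.

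Counts were scaled by TMM (factors 0.855 to 1.08), filtered with filterByExpr (minimum count 10, 13453 genes left) and tested with edgeR 4.0.16 (limma 3.58.1, R 4.3.3) in 1 quasi-likelihood fit of all 8 groups, with Benjamini-Hochberg adjustment over all genes and a threshold of 0.05. The steps were tested on simulated data. DESeq2 1.42.0, another scaling, other filters, fits of single comparisons, replicate blocks and leaving out each library were the alternatives. RPKM was computed as CPM per kilobase of merged GENCODE M21 exons. No pair of libraries in a group agreed within sampling noise. Promoters came from RefSeq (GRCm38.p6). Figures were drawn with matplotlib 3.10.9.

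The members and lists were chosen with earlier results of these data known. Named are all 9 members, per list and comparison up to 3 genes a direction with the largest fold change past the threshold and at least 10 CPM in the higher group, and per member up to 4 genes of highest correlation over the libraries. Tnfaip3, Itgax and Mrc1 were checked against the labels. Marker genes in the text were given from fixed lists of cell types. Some genes that these rules name are not reported here.

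Replicate numbers are shared by the groups. Deviations from group means were correlated between same-numbered libraries. Between the populations every pair was over 0.1 for WT on high-fat (0.23 to 0.47) and standard diet (0.14 to 0.28). The same held for KO on standard diet (0.14 to 0.32). The numbers may pair the 2 populations there, but the labels do not say whether they mark the same mouse. For KO on high-fat diet (-0.05 to 0.33) and between genotypes or diets, not every pair was over 0.1.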

Additional observations from a re-analysis of the deposited data

Results flagged for a closer look

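In WT CD11c+ cells on standard diet, Tfe3 in replicate 4 was 215 CPM while the other 3 libraries were at 158.6 to 167 CPM. Cebpa in replicate 4 of KO CD11c+ cells on high-fat diet was 109.6 CPM, also apart from the rest of its group. In both sets the gap to the nearest library, as a share of the group's range (0.852 and 0.889), exceeded Dixon's 95% critical value for 4 samples. These were 2 of 72 sets of 4 libraries, and chance gives about 1 in 20.

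By the interaction term of edgeR's fit, the genotype effect differed between the populations on standard diet for Cebpb, by -0.80 on the log2 scale. It differed between diets in CD11c+ cells by -1.25 for Mitf, -0.43 for Tfeb and -0.51 for Cebpa. In CD206+ cells it differed by -0.67 for Mitf and -0.39 for Spi1.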

How the results depend on the processing

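Under the alternatives run, no followed difference of the 7 members not picked on measured values changed sign. Values of Maf and Tfec near 0 did when 1 library was left out. On high-fat diet the difference of the genotype effect between populations then ran from -0.17 to 0.02 for Maf and from -0.16 to 0.1 for Tfec. Between diets in CD206+ cells that of Maf ran from -0.01 to 0.1. Of 104 followed results, DESeq2 kept 102, and 2 passed that had not. Kept means on the same side of the threshold. For Maf and Tfec outside the diet comparisons it means within 1 standard error of the main value, with no threshold. In the diet comparisons the threshold was applied to Maf and Tfec for this tally only. Their values there remain a description. A further 40 differences were smaller than their standard error: 27 of them changed sign under some alternative and 0 passed. Fitting only the groups compared gave 5 of 7 members between the populations in WT on high-fat diet (in place of 2) and 1 in KO on that diet (in place of 4), where no filter on low counts gave 2. Upper-quartile scaling gave 0 members for the difference of the genotype effect between diets in CD206+ cells (in place of 2), and it shifted the median of all genes by -0.107 between the populations in WT on standard diet. Leaving out 1 library gave 1 to 2 members for genotype in CD206+ cells on high-fat diet, 1 to 2 for population in WT on high-fat diet and 1 to 4 in KO on high-fat diet. It gave 0 to 1 for the genotype effect between populations on standard diet, and between diets 2 to 4 in CD11c+ and 1 to 4 in CD206+ cells. The cause of these changes was not tested, beyond the fewer libraries in some fits. Depth limits Tfec most, with 5 to 23 reads per library in its lowest group.

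With genotype, diet and replicate number as a block, the paired fit added Cebpb between populations in WT on high-fat diet (-0.32, adjusted p 0.0155 by edgeR) and Zeb2 in WT (-0.23, 0.039) and KO (-0.24, 0.0368) on standard diet. Over all genes, the genotype effect differed between populations for 1209 in place of 586 genes on high-fat diet and 1612 in place of 884 on standard diet under this block. It changed no other member call. With the number alone as a replicate block, Tfeb's genotype effect differed between diets in CD206+ cells (-0.42, adjusted p 0.0464).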

Other observations

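Immediate early genes, a list of 24, moved with diet in WT. In CD11c+ cells 1 rose and 17 fell with high-fat diet (median log2 fold change -0.86 against 0.01 for all genes). In CD206+ cells 0 rose and 13 fell (median -0.72 against -0.02). The shares of all genes that fell were 22.6% in CD11c+ and 13.5% in CD206+ cells. Between genotypes on standard diet 5 rose and 12 fell in CD11c+ cells (median -0.52) and 1 rose and 6 fell in CD206+ cells (median -0.2). On high-fat diet 9 rose and 2 fell in CD11c+ cells, and 5 rose and 0 fell in CD206+ cells. In KO cells 0 of 24 passed between diets by edgeR's test, with 0 in CD11c+ and 4 in CD206+ cells at an unadjusted p under 0.05.

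Other macrophage lineage factors, 15 measured genes of a list of 16, gave 5 higher and 5 lower with high-fat diet in WT CD11c+ cells. There 23.8% of all genes rose and 22.6% fell. In WT CD206+ cells the list gave 4 higher and 0 lower (14.2% and 13.5% of all genes). Between genotypes 2 rose in each of the 4 comparisons and 2 to 4 fell.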
